A study of Mus musculus with 6 samples.

Results

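The hypoxia response genes examined here were 10 genes picked by symbol, namely Hif1a, Egln1, Egln3, Bnip3, Higd1a, Pdk1, Ankrd37, Ddit4, Vegfa and Adm, out of 27998 genes in the count tables. All 10 were found once, and each had UMIs in every library. Cardiomyocytes (CMs) of the left ventricle of C57BL/6J mice had been fixed in methanol, stained for MYH1, a myosin heavy chain, and sorted by Hoechst signal into diploid (2n) and tetraploid (4n) cells. Droplet-based 3' scRNA-seq gave 6 libraries, 1 per combination of age (E16.5, P1 or P5) and ploidy, named here by age and then ploidy as in P1-2n CMs, with cells of 3 sorts, each of 1 litter, pooled before the library. The labels name no transgene or treatment. E16.5 is embryonic day 16.5, before birth, and P1 and P5 are postnatal days 1 and 5. The title of the E16.5-4n library gives 16.5 and its age label 16.6. Litters of the different ages came from different breeding pairs. With 1 library per group there was no replicate error, no test between groups was made, and neither age nor ploidy can be told apart from the library.

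Cells sense oxygen through prolyl hydroxylases (the EGLN, or PHD, enzymes), which use oxygen to mark the alpha subunits of hypoxia-inducible factor (HIF) for degradation through the von Hippel-Lindau protein. When oxygen is low, HIF1A accumulates, pairs with ARNT and binds a short DNA element, the hypoxia response element, at its target genes. Targets raise glycolysis, hold pyruvate back from mitochondria, remove mitochondria and promote vessel growth. HIF1A is controlled mainly as a protein, so its mRNA is not a measure of its activity. The fetal heart develops at low oxygen tension and relies on glycolysis, and CMs turn to oxidation of fatty acids after birth.

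The promoters of Bnip3, Egln3 and Ankrd37 are shown because these 3 genes were more than 2-fold lower at P1 than at E16.5 in both ploidies. Each is the RefSeq window of 300 bases (250 before to 50 after the start, GRCm38.p6), all on the minus strand, at chr7:138909457-138909756 for Bnip3, chr12:54203825-54204124 for Egln3 and chr8:45999801-46000100 for Ankrd37. Capitals mark the core letters of the hypoxia response element, ACGTG or GCGTG, on either strand.
Bnip3: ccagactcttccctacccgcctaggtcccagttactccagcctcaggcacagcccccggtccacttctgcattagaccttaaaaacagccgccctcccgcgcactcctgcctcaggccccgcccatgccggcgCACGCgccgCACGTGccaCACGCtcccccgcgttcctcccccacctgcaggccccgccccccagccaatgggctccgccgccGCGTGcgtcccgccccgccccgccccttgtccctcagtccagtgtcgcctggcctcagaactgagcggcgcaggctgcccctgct
Egln3: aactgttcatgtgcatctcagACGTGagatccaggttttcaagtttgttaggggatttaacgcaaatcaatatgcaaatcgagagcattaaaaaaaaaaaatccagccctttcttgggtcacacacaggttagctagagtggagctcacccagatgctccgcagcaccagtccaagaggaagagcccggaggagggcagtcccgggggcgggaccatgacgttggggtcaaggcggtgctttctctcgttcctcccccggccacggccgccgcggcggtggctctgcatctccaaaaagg
Ankrd37: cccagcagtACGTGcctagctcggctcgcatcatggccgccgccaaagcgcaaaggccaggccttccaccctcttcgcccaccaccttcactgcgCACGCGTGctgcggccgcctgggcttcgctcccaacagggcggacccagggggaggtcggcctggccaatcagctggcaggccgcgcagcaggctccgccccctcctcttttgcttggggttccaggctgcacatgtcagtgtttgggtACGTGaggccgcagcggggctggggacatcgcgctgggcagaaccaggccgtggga
Bnip3 had 5 core matches, Ankrd37 4 and Egln3 1. The palindrome CACGTG counts once on each strand, and overlapping matches count separately. All 10 genes matched the RefSeq table, with 12 windows in all, and each gene had a core match in at least 1 window. For comparison, 43.8% of the 32851 windows in the table held a match and 20.6% held 2 or more. These matches are a description of the letters, not of binding.

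The count tables held 31156 cells, of which 30733 were kept as CMs because they had at least 1 UMI (a count of 1 captured RNA molecule) of each of Tnni3, Tnnt2, Tnnc1 and Actc1. CMs per library ranged from 3654 to 7340, their UMIs from 13070343 to 19665830 and their median UMIs per CM from 1831 (P1-2n) to 4658 (P5-4n). All 8 cardiomyocyte markers had UMIs in every library, at a summed 31847 to 41108 CPM (UMIs of a gene for each 1000000 UMIs of all CMs of the library). Markers of other cell types were present too. The 7 endothelial markers summed to 29.2 (2n) and 114 (4n) CPM at E16.5, to 30.9 and 130 CPM a day after birth and to 66.8 and 69.9 CPM in P5 CMs. The 7 fibroblast markers summed to 127, 757, 132, 894, 245 and 337 CPM in the same order of ages and ploidies, the 7 mural markers to 734 to 1814 CPM, mostly Acta2, the 7 immune markers to 6.51 to 26.1 CPM and the 4 epicardial markers to 2.07 to 14.1 CPM. The 6 erythroid genes summed to 5130 and 10389 CPM at E16.5 and to 1648 to 2906 CPM after birth. Mitochondrially encoded genes held 8.16 to 8.28% of the UMIs at E16.5 and 16.3 to 18.0% after birth. Between 17 and 62 cell barcodes were shared by each of the 15 pairs of libraries, in all 499 of 30652 distinct barcodes.

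From E16.5 to P1, Bnip3, Egln3 and Ankrd37 were lower by more than 2-fold in 2n and in 4n CMs, and no member was more than 2-fold higher. Adm was past this fold in 4n CMs at a log2 ratio of -1.28 (-2.05 to -0.54) and at -0.93 (-1.81 to -0.10) in 2n CMs, with intervals that overlapped. A gene was compared where it had at least 50 UMIs over the pair of libraries, and called lower or higher past a 2-fold ratio of CPM. In 2n CMs 3 of the 10 members were called lower, where 13.9% of all genes compared were lower, and 0 were called higher, where 2.29% of all genes were higher. In 4n CMs 4 of 10 were called lower and 0 higher, beside 12.5% and 3.53% of all genes. From E16.5 to P5, 4 of the 9 members that could be compared in 2n CMs were called lower and 0 higher, beside 17.9% and 3.67% of all genes. In 4n CMs these were 5 of 10 lower and 0 higher, beside 22.7% and 2.91%. The median gene of all those compared was itself lower, by -0.35 (2n) and -0.30 (4n) on the log2 scale from E16.5 to P1, and by -0.45 and -0.52 from E16.5 to P5. The median log2 ratio over all 10 members was -0.69 and -0.67 from E16.5 to P1, and -0.99 and -0.98 from E16.5 to P5.

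From P1 to P5, 0 of the 9 members compared were called lower and 0 higher in 2n CMs, beside 2.43% and 4.05% of all genes. In 4n CMs 1 of 9, Ddit4, was lower and 0 were higher, beside 7.75% and 2.67%. The lower levels of Bnip3, Ankrd37 and Pdk1 were thus present by P1, whereas Ddit4 was lower at P5 than at P1, and Higd1a and Egln1 had their highest CPM at P5. Between ploidies no member compared was past 2-fold in either direction. At E16.5 this was 0 of 10 lower and 0 higher in 4n than in 2n CMs, beside 0.167% and 5.88% of all genes, at P1 0 of 9 in both directions, beside 0.0092% and 7.41%, and at P5 0 of 9 in both directions, beside 0.568% and 1.98%. Adm was the member left out of 5 of the 9 comparisons, with fewer than 50 UMIs over the pair.

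**Figure D1:**
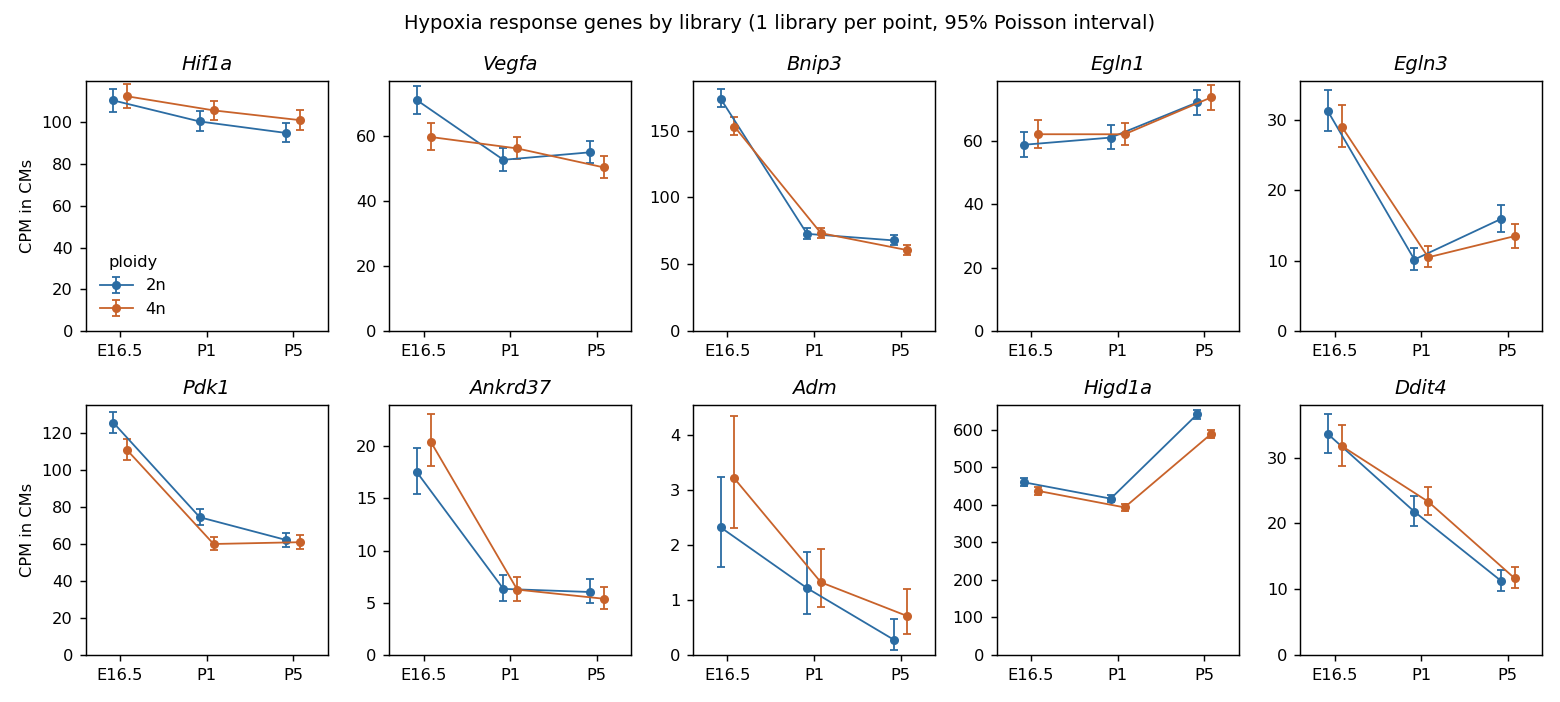
CPM of each of the 10 genes (vertical axes from 0, each with its own scale) by age (horizontal axes), 2n CMs in blue and 4n CMs in orange. Each point is 1 library and bars are 95% Poisson intervals, which cover counting error only. Bnip3, Egln3, Pdk1 and Ankrd37 dropped between E16.5 and P1 in both ploidies, whereas Hif1a stayed between 94.9 and 112 CPM and Higd1a was highest at P5.

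Hif1a, the oxygen-regulated alpha subunit of HIF1, was close to level across birth. E16.5 CMs had 110 (2n; 105 to 116, 95% Poisson interval) and 112 (4n) CPM, P1 CMs 100.4 and 106, and P5 CMs 94.9 (90.4 to 99.5) and 101. Neighbouring libraries in the order of their levels did not differ beyond their counting intervals. Libraries further apart did: from E16.5 to P5 the log2 ratio was -0.22 (-0.32 to -0.12) in 2n and -0.15 (-0.25 to -0.06) in 4n CMs. The log2 ratio from E16.5 to P1 was -0.14 (-0.24 to -0.04) in 2n and -0.09 (-0.19 to 0.01) in 4n CMs, and its sign changed with the scaling (-0.17 to 0.21 and -0.18 to 0.24 over the alternatives). Relative to the median gene it was 0.21 higher in both ploidies.

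Egln1 (PHD2), the prolyl hydroxylase that does most of the marking of HIF1A, was level at birth and higher at P5. Its CPM was 58.7 (2n) and 62.0 (4n) before birth, 61.0 and 62.0 a day after it, and 72.1 and 73.6 by P5. Both P5 libraries lay above the other 4, and the ratio from P1 to P5 was 0.24 (0.12 to 0.36) in 2n and 0.25 (0.13 to 0.36) in 4n CMs. From E16.5 to P1 the ratio was 0.05 (-0.08 to 0.19) and -0.00 (-0.13 to 0.13), with a sign that changed between scalings.

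Egln3 (PHD3), a hydroxylase of the same family whose gene is itself a HIF target, had another course. E16.5 CMs had 31.2 (2n, 456 UMIs) and 29.0 (4n) CPM, P1 CMs 10.2 (167 UMIs) and 10.5, and P5 CMs 15.9 and 13.5. Both E16.5 libraries stood above all postnatal ones. The drop at birth was 3.07-fold in 2n CMs (log2 -1.62, -1.88 to -1.36) and 2.77-fold in 4n CMs (-1.47, -1.72 to -1.22), and it stayed past 2-fold under all alternatives tried. From P1 to P5 Egln3 was higher again, by 0.65 (0.37 to 0.93) in 2n and 0.36 (0.09 to 0.64) in 4n CMs, which left it 1.96-fold (2n) and 2.15-fold (4n) below E16.5.

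Bnip3, a receptor on the outer mitochondrial membrane that drives mitophagy, had 174 CPM (2544 UMIs) in E16.5-2n and 153 (2000 UMIs) in E16.5-4n CMs. After birth it had 72.8 (2n) and 73.3 (4n) CPM in P1 CMs, and 67.9 and 60.6 CPM in P5 CMs. The 2 groups of libraries, before and after birth, did not overlap. The drop at birth was 2.39-fold in 2n CMs (log2 -1.26, -1.36 to -1.16) and 2.09-fold in 4n CMs (-1.06, -1.16 to -0.96). Over the alternatives the ratio ranged from -1.35 to -0.88 in 2n and from -1.07 to -0.67 in 4n CMs, so that its place past 2-fold depended on the alternative in both ploidies and its direction did not. From P1 to P5 the ratio was -0.10 (-0.22 to 0.02) in 2n and -0.28 (-0.39 to -0.16) in 4n CMs.

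Higd1a, a small protein of the inner mitochondrial membrane that interacts with the respiratory chain, did not follow Bnip3. Fetal CMs had 460.0 (2n) and 437 (4n) CPM, P1 CMs 417 and 393, and P5 CMs 642 and 589. It was lowest at P1 and highest at P5 in both ploidies, and all 5 steps in the order of the libraries lay outside the counting interval. The ratio from P1 to P5 was 0.62 (0.58 to 0.67) in 2n and 0.58 (0.54 to 0.62) in 4n CMs, neither past 2-fold. From E16.5 to P1 it was -0.14 (-0.19 to -0.09) and -0.15 (-0.20 to -0.10), and became positive under other scalings (up to 0.20 in 2n and 0.17 in 4n). Relative to the median gene, Higd1a was 0.93 (2n) and 0.95 (4n) higher at P5 than at E16.5, and 90.8% and 91.6% of all genes compared had a lower ratio.

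Pdk1, a kinase that inactivates pyruvate dehydrogenase and so keeps pyruvate out of the citric acid cycle, had 126 (2n) and 111 (4n) CPM before birth, 74.6 and 60.1 CPM in P1 CMs, and 62.2 and 61.0 CPM in P5 CMs. Its E16.5 libraries were above all others, and P1-2n was above the other 3 postnatal libraries. The ratio from E16.5 to P1 was -0.76 (-0.86 to -0.65) in 2n and -0.89 in 4n CMs (1.85-fold lower). By P5 the ratios to E16.5 were -1.02 (-1.12 to -0.91) and -0.86 (-0.98 to -0.75), past 2-fold in 2n CMs only, which is not a test of a difference between the ploidies. The 2n and 4n steps from P1 to P5 had intervals that did not overlap, at -0.26 (-0.38 to -0.14) and 0.02 (-0.10 to 0.14), but over the alternatives they ranged from -0.29 to -0.02 and from -0.38 to 0.22, which overlap.

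Ankrd37, an ankyrin repeat protein whose gene is a HIF1 target, had few UMIs. Before birth it had 17.5 CPM from 256 UMIs (2n) and 20.4 from 267 (4n). P1 CMs had 6.32 from 104 and 6.25 from 123 UMIs, and P5 CMs 6.03 from 108 and 5.38 from 99. The 4 postnatal libraries did not differ from each other beyond counting error and all lay below both E16.5 libraries. The drop at birth was 2.77-fold in 2n CMs (log2 -1.47, -1.81 to -1.13) and 3.27-fold in 4n CMs (-1.71, -2.03 to -1.39), and it was past 2-fold under all alternatives.

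Ddit4 (REDD1), an inhibitor of mTORC1 that is induced by low oxygen and by other stresses, was lowest at P5. Its CPM was 33.6 (2n) and 31.8 (4n) before birth, 21.8 and 23.3 in P1 CMs, and 11.3 and 11.6 in P5 CMs. The ploidies of an age lay within counting error of each other, and the ages lay apart. From E16.5 to P1 the ratio was -0.63 (-0.83 to -0.43) in 2n and -0.45 (-0.64 to -0.25) in 4n CMs, where it ranged from -0.56 to 0.03 over the alternatives and so changed sign. From E16.5 to P5 Ddit4 was 2.98-fold lower in 2n CMs (log2 -1.57, -1.82 to -1.34) and 2.73-fold lower in 4n CMs (-1.45, -1.69 to -1.21). From P1 to P5 the ratio was -0.95 (-1.21 to -0.70) in 2n CMs and just past the 2-fold limit in 4n CMs (-1.24 to -0.76). Genes known to respond to tissue dissociation were, like Ddit4, lowest at P5. The 12 of a list with Fos, Jun, Egr1 and Atf3 summed to 1661, 1598, 932, 1299, 497 and 530 CPM from E16.5-2n to P5-4n. Their part in the Ddit4 levels was not tested. Of this list, 10 of 12 genes were past 2-fold lower from E16.5 to P5 in each ploidy, beside 17.9% (2n) and 22.7% (4n) of all genes. From E16.5 to P1, 5 of 12 were lower and 0 higher in 2n CMs, and 1 lower and 1 higher in 4n CMs. Of all genes 13.9% and 12.5% were lower, and 2.29% and 3.53% higher. The median of the list was -0.57 (2n) and -0.26 (4n), against -0.35 and -0.30 for all genes. Atf3, a stress-induced transcription factor, was lower at birth by -2.16 (2n) and -1.52 (4n).

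Vegfa, the main growth factor for blood vessels, had 70.9 (2n) and 59.6 (4n) CPM before birth, 52.6 and 56.1 CPM in P1 CMs, and 54.9 and 50.3 CPM in P5 CMs. E16.5-2n stood above the other 5 libraries, whose neighbours in order did not differ beyond counting error. Libraries further apart did: from E16.5 to P5 the ratio was -0.37 (-0.50 to -0.24) in 2n and -0.25 (-0.38 to -0.11) in 4n CMs. Over the alternatives it ranged from -0.38 to 0.08 and from -0.32 to 0.28, so its sign changed. The ratio from E16.5 to P1 was -0.43 (-0.56 to -0.30) in 2n and -0.09 (-0.22 to 0.05) in 4n CMs, with intervals that did not overlap, but over the alternatives these ratios ranged from -0.49 to -0.09 and from -0.19 to 0.24, which overlap. At E16.5 Vegfa was lower in 4n than in 2n CMs by -0.25 (-0.39 to -0.12).

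Adm, the vasodilator peptide adrenomedullin, was near the limit of detection, with 34 UMIs (2.32 CPM, 1.61 to 3.25) in 2n and 42 (3.21 CPM) in 4n CMs before birth. P1 CMs had 20 (1.22 CPM) and 26 (1.32 CPM), and P5 CMs 5 (0.279 CPM) and 13 (0.706 CPM). For comparison, 3 UMIs correspond to 0.153 to 0.230 CPM. The ratio from E16.5 to P5 was -3.06 (-4.77 to -1.70) in 2n CMs, where Adm had fewer than 50 UMIs over the pair, and -2.19 (-3.21 to -1.26) in 4n CMs.

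**Figure D2:**
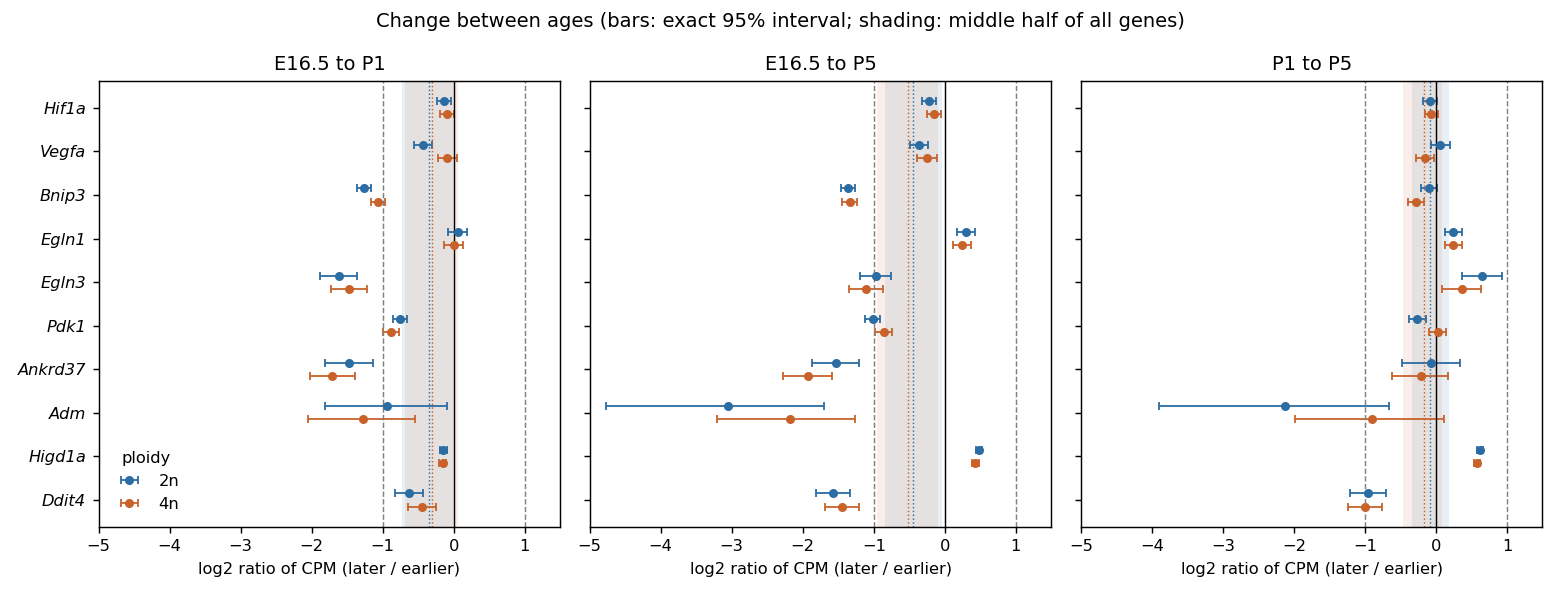
Log2 ratio of CPM of each gene between ages (horizontal axis), with 2n in blue, 4n in orange and exact 95% intervals from the split of the UMIs, which cover counting error only. Shading spans the quartiles of all genes compared, the dotted line is their median and dashed lines mark 2-fold. Egln3, Ankrd37 and Bnip3 lay left of the shading from E16.5 to P1, at -1.71 to -1.06, whereas Hif1a, Egln1 and Higd1a lay within it or at its right edge.

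Differences between ploidies were small beside the largest ones between ages, but not beside every step between ages. Vegfa differed between ploidies by -0.25 at E16.5, and by -0.09 from E16.5 to P1 in 4n CMs. Pdk1 differed between ploidies by -0.31 at P1, and from P1 to P5 by -0.26 (2n) and 0.02 (4n). Over the members other than Adm, log2 ratios of 4n to 2n CMs lay between -0.31 (Pdk1 at P1, -0.43 to -0.20) and 0.22 (Ankrd37 at E16.5, -0.03 to 0.48). The ratio of Pdk1 at P1 ranged from -0.44 to -0.02 over the alternatives, and the value nearest 0 came without CMs with any non-myocyte markers. That class counted Acta2 and took 36.3% of P1-2n and 65.3% of P1-4n CMs. Without CMs with non-myocyte markers when Acta2 and Abcc9 were not counted, the ratio was -0.23. At all 3 ages Higd1a was a little lower in 4n CMs, at -0.07 (-0.12 to -0.02) at E16.5, -0.08 (-0.13 to -0.04) at P1 and -0.12 (-0.16 to -0.09) at P5. Bnip3 was lower in 4n CMs at E16.5, by -0.19 (-0.27 to -0.10), and at P5, by -0.16 (-0.28 to -0.05), and at 0.01 (-0.10 to 0.12) at P1. Without CMs with non-myocyte markers, Acta2 and Abcc9 again not counted, the ratio of Higd1a was -0.02 at E16.5, -0.05 at P1 and -0.14 at P5. That of Bnip3 was then -0.12, 0.12 and -0.19. Adm had a ratio of 1.34 (-0.24 to 3.18) at P5 from 5 and 13 UMIs, whose sign turned when CMs were thinned. The 4n libraries of E16.5 and P1 also held the highest summed levels of endothelial and fibroblast markers given above, and the part of these cells or RNAs in the ploidy ratios was not tested.

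In single CMs these genes were seen in few cells at a time, and shares of CMs with a UMI depend on depth, so each CM was thinned to 1000 UMIs and shallower CMs were left out (from 0 in P1-4n and P5-4n to 700 in P1-2n). Bnip3 was then found in 15.6% (2n; 14.7 to 16.6, exact Clopper-Pearson 95% interval) and 14.0% (4n) of fetal CMs, in 7.02% and 7.20% of P1 CMs, and in 7.03% and 5.39% of P5 CMs. Before thinning these shares were 32.5%, 30.5%, 14.3%, 24.5%, 22.1% and 24.5%. As in CPM, both E16.5 libraries lay above all postnatal ones.

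Higd1a was found in 36.4%, 34.8%, 33.1%, 31.9%, 47.4% and 43.5% of thinned CMs in the same order of libraries, and in 53.8% (P1-2n) to 89.2% (P5-4n) before thinning. Pdk1 was found in 12.5%, 10.4%, 7.29%, 6.55%, 6.24% and 5.45% of thinned CMs. The thinned share with Hif1a ranged only from 9.26% to 10.8% (18.7% to 37.1% before thinning). Egln1 ranged from 5.88% to 7.17%. Vegfa ranged from 4.76% (4.09 to 5.50, P5-4n) to 6.85% (6.19 to 7.54, E16.5-2n), with intervals that did not overlap.

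Shares of the less abundant members were in the range of genes of other cell types. Egln3 was found in 3.03% and 2.80% of thinned E16.5 CMs and in 0.904% to 1.71% after birth, and Ddit4 in 3.20% and 3.05% of fetal, 2.39% and 2.86% of P1 and 1.02% and 1.40% of P5 CMs. Ankrd37 was found in 1.70% and 2.45% of fetal CMs and in 0.520% to 0.706% after birth, and Adm in 0.0547% to 0.371%. In the same thinned CMs Cdh5, an endothelial gene, was found in 0.253% to 3.12%, the fibroblast gene Col1a1 in 0.795% to 9.59%, the mural gene Rgs5 in 0.199% to 3.88%, the macrophage gene C1qa in 0.0181% to 0.548% and the erythroid gene Alas2 in 0.301% to 1.22%. In E16.5-2n CMs Egln3, Ddit4 and Ankrd37 were above each of these 5 genes, of which Col1a1 was highest at 0.795%. In E16.5-4n CMs Egln3 (2.80%), Ddit4 (3.05%) and Ankrd37 (2.45%) were all below Col1a1, which was at 9.55%. After birth Egln3 and Ankrd37 were below at least 1 of these genes in every library, as was Ddit4 in all but P1-2n CMs, where its 2.39% stood above Col1a1 at 1.16%. Adm was below all 5 genes in P1-4n CMs and in both P5 libraries. Shares of a member at or below those of such genes do not by themselves tell expression by CMs from RNA of other cells. The share of Col1a1 is not a background level for other genes either. CMs with at least 2 UMIs of fibroblast markers made up 19.1% of E16.5-4n and 27.8% of P1-4n CMs. Among more abundant members, Vegfa (5.95%) and Egln1 (5.97%) were also below Col1a1 in E16.5-4n CMs. In P1-4n CMs, with Col1a1 at 9.59%, so were Bnip3 (7.20%), Pdk1 (6.55%), Egln1 (5.88%) and Vegfa (5.65%). Hif1a was at 9.61% in that library. Before thinning, the shares of Egln3 and Ankrd37 were 2.17% to 7.48% and 1.38% to 5.16%.

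The number of members found in a CM shifted with age. At 1000 UMIs, CMs with UMIs of 0 members made up 34.9% (2n; 33.7 to 36.2) and 37.1% (4n) before birth, 44.8% and 45.9% of P1 CMs, and 35.8% and 38.5% of P5 CMs. Those with 3 or more members made up 5.76% (5.16 to 6.41) and 4.71% before birth, 2.14% and 2.28% of P1 CMs, and 2.94% and 1.97% of P5 CMs. At P5 the share of CMs without any member was thus near that at E16.5, and the share with 3 or more near that at P1. Summed over the 10 members, CPM was 1084, 1020, 817, 792, 1027 and 967, of which Higd1a made up the largest part in each library. Higd1a alone had 460.0, 437, 417, 393, 642 and 589 CPM. From E16.5 to P5 the interval of the ratio lay above 0 for 2 members, Higd1a and Egln1, in each ploidy, and below 0 for the other 8. The sum and the shares at P5 thus do not show a return of the members in general, and shares without Higd1a were not computed. At most 6 members were found in 1 CM.

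**Figure D3:**
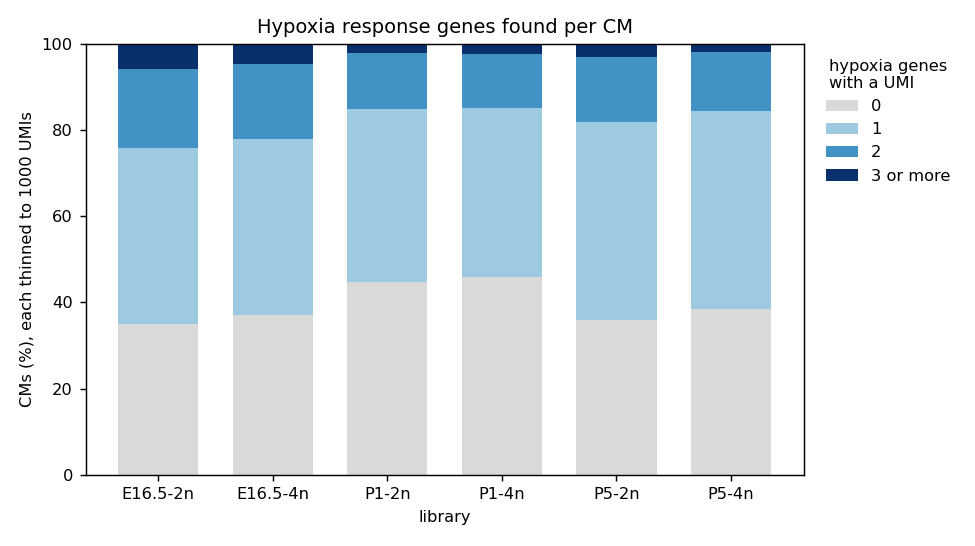
Share of CMs (vertical axis, percent) with UMIs of 0, 1, 2 or 3 or more of the 10 hypoxia response genes in each library, with every CM thinned to 1000 UMIs. The darkest segment, 3 or more genes, covers 5.76% and 4.71% at E16.5 and 1.97% to 2.94% after birth.

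Because the libraries held CMs with UMIs of stromal genes, members were compared between CMs with at least 2 UMIs of a non-myocyte marker list and CMs with fewer of every list. The mural genes Acta2 and Abcc9 were not counted, since CMs carried both (Acta2 at 598 to 1771 CPM), a choice made after the data had been seen. Such CMs made up 3.18% (2n) and 24.9% (4n) of fetal CMs, 3.16% and 37.2% of P1 CMs, and 8.52% and 16.5% of P5 CMs. They were deeper (median 2540 to 4890 UMIs, against 1814 to 4614 in the rest). The limit of 2 UMIs is a point on a range, and 53 to 313 CMs per library had exactly 2 and 709 to 1107 had 1. With Acta2 and Abcc9 counted the class took 36.3% to 73.0% of the CMs.

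Ankrd37 was higher in CMs with endothelial markers than in CMs without markers in all 6 libraries. Before birth its CPM was 40.1 against 16.7 (2n) and 29.3 against 19.2 (4n). P1 CMs had 13.2 against 6.09 and 10.9 against 5.30, and P5 CMs 17.7 against 5.58 and 17.2 against 3.57. These log2 ratios of 0.61 to 2.26 rest on 4 to 39 UMIs of Ankrd37 in the marked CMs, and the interval lay above 0 in 5 of 6 libraries (in P1-2n it was -0.79 to 2.52). Higher Ankrd37 was not particular to endothelial markers. With mural markers its ratio was 1.15 (-0.18 to 2.22) in E16.5-2n and 1.23 (0.39 to 1.97) in E16.5-4n CMs. With fibroblast markers it was 1.25 (0.57 to 1.88) in E16.5-2n but -0.03 (-0.50 to 0.41) in E16.5-4n CMs. Without any marked CMs the drop of Ankrd37 at birth was -1.46 in 2n and -1.86 in 4n CMs, and that from E16.5 to P5 was -1.58 and -2.43.

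Ddit4 was likewise higher in CMs with endothelial markers in all 6 libraries, by 0.13 (-0.38 to 0.60, E16.5-4n) to 0.92 (0.13 to 1.61, E16.5-2n), with the interval above 0 in 3. With mural markers the ratio of Ddit4 was 1.17 (0.29 to 1.94) in E16.5-2n and 0.69 (-0.08 to 1.38) in E16.5-4n CMs. With fibroblast markers it was 0.22 (-0.47 to 0.83) and -0.05 (-0.41 to 0.30). Higd1a was lower in the CMs with endothelial markers of each library, by -0.47 to -0.11. In the same class Pdk1 ranged from -0.94 (-1.89 to -0.13, P1-2n) to -0.03. Bnip3 lay between -0.57 and 0.12 in this class. Without the CMs marked by any of the lists the drop of Bnip3 at birth was -1.25 in 2n and -1.01 in 4n CMs. That of Egln3 was -1.60 and -1.57. Both were close to the values with all CMs.

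**Figure D4:**
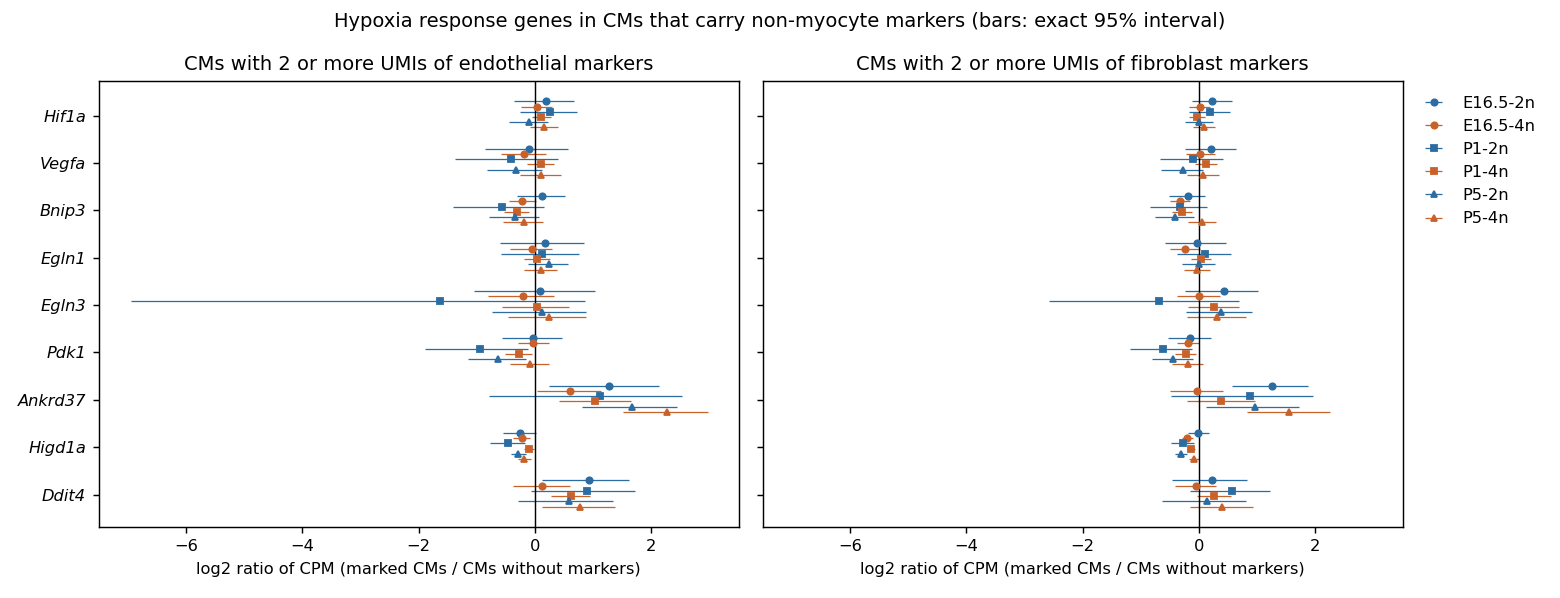
Log2 ratio of CPM (horizontal axis) in CMs with at least 2 UMIs of endothelial (left) or fibroblast (right) markers against CMs without markers, for 9 of the genes (Adm had too few UMIs), 1 point per library with exact 95% intervals for counting error. Ankrd37 lies to the right of 0 in all 6 libraries for endothelial markers, at 0.61 to 2.26, and Higd1a to the left.

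The other alpha subunits moved in opposite directions at birth while Hif1a stayed level. Of 10 listed HIF subunits and regulators, 9 could be compared from E16.5 to P1, of which 2 (2n) and 1 (4n) were lower and 1 higher past 2-fold, beside 13.9% and 12.5% of all genes lower and 2.29% and 3.53% higher. Hif3a, whose products include inhibitors of HIF, had 11.9 and 11.3 CPM in E16.5-2n and E16.5-4n, 3.53 and 3.15 a day after birth, and 0.0558 and 0.272 CPM (1 and 5 UMIs) by P5. Its ratio at birth was -1.75 (-2.21 to -1.32) in 2n and -1.84 (-2.30 to -1.41) in 4n CMs. Epas1, which encodes HIF2A and is high in endothelium, had 3.49, 9.18, 12.0, 22.9, 25.3 and 26.4 CPM in the 6 libraries, with ratios at birth of 1.78 (1.33 to 2.25) and 1.32 (1.02 to 1.62). In the same order of libraries the endothelial markers summed to 29.2, 114, 30.9, 130, 66.8 and 69.9 CPM. The part of endothelial RNA in the Epas1 levels was not tested.

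Other known targets of HIF, beside a separate list of glycolytic targets, were lower at birth in larger numbers. They included genes tied to glycolysis, such as Slc16a3 and Pfkfb3, and so are not only targets outside glycolysis. Of those compared, 12 of 25 were lower in 2n and 10 of 26 in 4n CMs, beside 13.9% and 12.5% of all genes, and 0 were higher in both. Their median ratio was -0.96 and -0.74, against -0.35 and -0.30 for all genes. Slc16a3, the lactate exporter MCT4, had 46.1 and 44.8 CPM at E16.5 and 2.43 and 2.64 at P1, a ratio of -4.24 (2n) and -4.08 (4n). Ndrg1, a stress-responsive gene, was at -3.05 and -2.11, and Pfkfb3, which makes the activator of phosphofructokinase, at -2.87 and -1.98. Enzymes that modify collagen were lower as well, P4ha1 by -2.01 and -1.40, P4ha2 by -1.27 and -1.37 and Plod2 by -1.56 and -1.17. From E16.5 to P5 the counts were 16 of 25 and 12 of 25 lower and 1 higher in each ploidy. Of all genes 17.9% and 22.7% were lower in that step, and 3.67% and 2.91% higher.

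All 14 glycolytic HIF targets could be compared, and 9 were lower past 2-fold at birth in each ploidy and 0 higher, beside 13.9% and 12.5% of all genes lower, with medians of -1.35 and -1.27. This list and the others were chosen with earlier results of these data known, so their counts are a description. The glucose transporter Slc2a1 had 85.4 and 65.2 CPM at E16.5 and 8.94 and 6.00 at P1, and Pgam1 527 and 471 against 97.7 and 87.7. Pfkp (-1.82 and -1.89), Eno1 (-1.89 and -1.57), Pfkl (-1.76 and -1.53) and Pgk1 (-1.92 and -1.21), each an enzyme of glycolysis, were the other named genes. From P1 to P5, 0 of 14 were past 2-fold in either direction, and the median was 0.14 and 0.20. Of all genes 2.43% (2n) and 7.75% (4n) were lower in that step, and 4.05% and 2.67% higher. Several glycolytic genes have processed pseudogenes, so that their counts may have been split or lost.

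Genes close in role to Bnip3 and Pdk1 had a range of ratios at birth. Of 9 mitophagy genes, 8 were compared at birth and 0 were lower past 2-fold, with 0 (2n) and 1 (4n) higher and medians of 0.16 in both ploidies. Of all genes 13.9% (2n) and 12.5% (4n) were lower and 2.29% and 3.53% higher, with medians of -0.35 and -0.30. Bnip3l, the nearest relative of Bnip3, was at -0.66 and -0.67. Fundc1, a further mitophagy receptor, was at -0.41 in both. Bnip3l and Fundc1 were on the list of other HIF targets too. Of the 3 other pyruvate dehydrogenase kinases, Pdk4, the isoform tied to fatty acid use, had 25.9 and 22.6 CPM at E16.5 and 96.7 and 94.4 at P1, a ratio of 1.90 and 2.06. Pdk3 was lower, by -1.23 and -1.01. Pdk1 and Pdk4 thus lay on opposite sides of 0 at birth in both ploidies.

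Vegfa and Adm, the secreted members, have relatives and receptors on 2 further lists. Of 6 genes of the Vegf family and its receptors, 2 were lower past 2-fold at birth in each ploidy, Pgf (-2.89 and -1.07) and Vegfc (-1.51 and -1.19), whereas Vegfb was at -0.04 and -0.03. Of all genes compared, 13.9% and 12.5% were lower at birth. At E16.5 2 of 6, and at P1 3 of 6, were higher past 2-fold in 4n than in 2n CMs, beside 5.88% and 7.41% of all genes. This list shares Kdr with the endothelial markers. Kdr had 3.42 (2n) and 12.2 (4n) CPM at E16.5 and 5.11 and 18.4 CPM at P1. The part of endothelial RNA in these counts was not tested. Of 3 genes of the Adm receptor, 2 could be compared between ploidies, and both were higher past 2-fold in 4n CMs of E16.5 and of P1, but neither in those of P5. Ramp2 had 7.38, 39.0, 4.26, 28.4, 6.47 and 7.66 CPM in the 6 libraries. It was highest in E16.5-4n and P1-4n CMs, as were the summed endothelial markers. The P5 libraries had Ramp2 levels near that of E16.5-2n, although their endothelial markers summed to 66.8 and 69.9 CPM against 29.2 there. Of the 3 listed relatives of Higd1a and Ddit4, Ddit4l had 1.95 to 4.44 CPM and 1 or 2 could be compared at birth, 1 of them lower in 2n and 1 higher in 4n CMs.

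**Figure D5:**
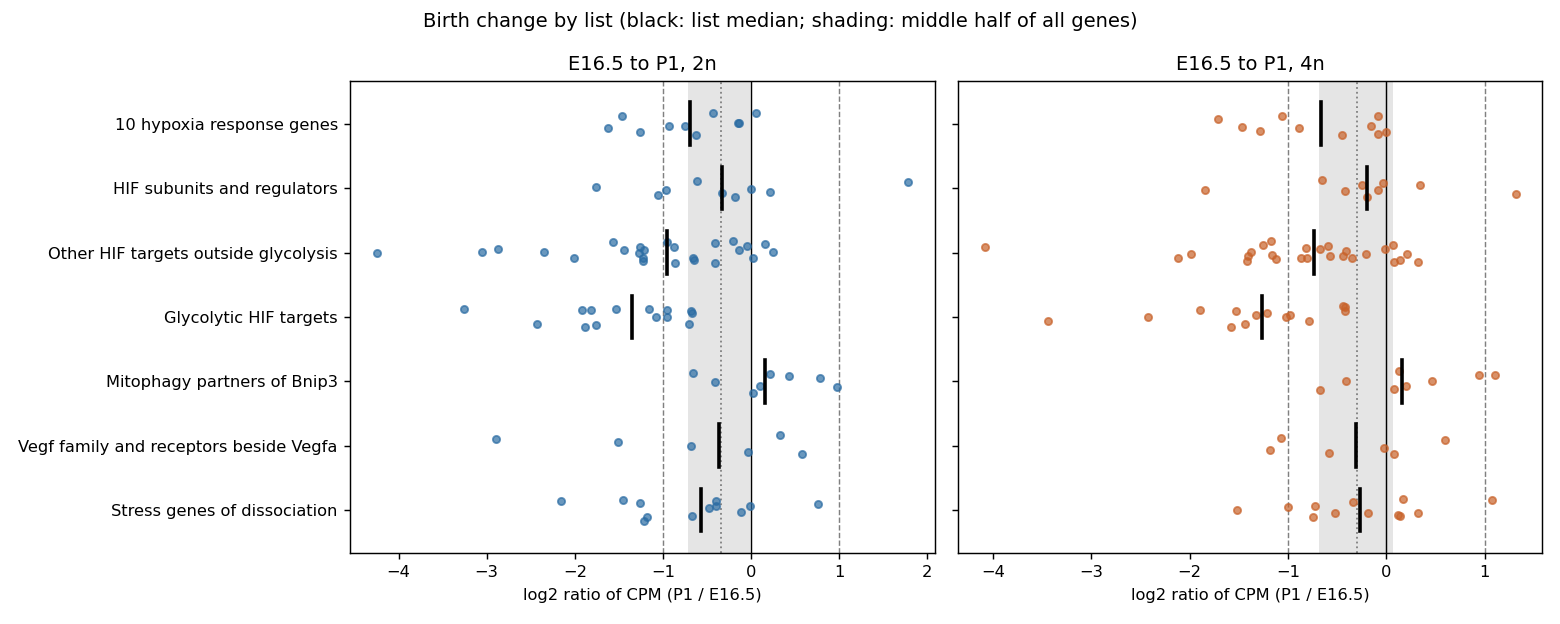
Log2 ratio of CPM from E16.5 to P1 (horizontal axis) in 2n (left) and 4n (right) CMs for the 10 hypoxia response genes and for genes of 6 related lists with at least 50 UMIs over the pair, 1 point per gene. Black bars are list medians, shading spans the quartiles of all genes compared, its dotted line their median, and dashed lines mark 2-fold. Glycolytic targets have the lowest medians shown, -1.35 and -1.27, and mitophagy genes lie around 0.16.

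Genes with the course most like that of a member were sought for the 3 members with most UMIs, among 9628 genes with at least 300 UMIs, by the root mean square difference of centred log2 CPM over the 6 libraries. For Higd1a these were Rab30 (0.047, on only 364 UMIs over all CMs), Mrps36 (0.061) and Ctsb (0.069), where the median gene differed by 0.474. For Hif1a they were Rab10 (0.016), Gorasp2 (0.019) and Anapc13 (0.028, median 0.278). For Bnip3 they were Epb41l3 (0.043), Ncs1 (0.052) and Pelo (0.057, median 0.483). With 6 points that share 3 ages these are descriptions, and counting error was not taken into the ranks. Among the members themselves, Pdk1 (0.205) and Ankrd37 (0.226) lay closest to Bnip3, Vegfa (0.120) to Hif1a and Egln1 (0.162) to Higd1a.

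Some members share sequence or ground with other genes (GENCODE vM21, GRCm38). The 3' ends of Bnip3 transcripts match 5 other annotated genes at 95.3% identity or more, among them 3 pseudogenes, and those of Higd1a match the pseudogene Gm9790 at 99.3%. None of these 6 genes was in the count tables, so UMIs of Bnip3 and Higd1a could have been lost or gained. Ankrd37 overlaps exons of Lrp2bp and Ufsp2 on the other strand, which had 77 and 2456 UMIs against 957 of Ankrd37, and counting used the strand. Hif1a shares exons with Gm49321 on its own strand, not in the count tables either. Bnip3 lies at chr7:138890836-138909519 and Egln3 at chr12:54178981-54203860, both on the minus strand.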

How the data were processed

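The members and gene lists were chosen with earlier results of these data known. Each library was made with 10x Genomics chemistry. The authors counted strand-specific UMIs per gene and cell with Cell Ranger and STAR against mm10/GRCm38 with annotation GRCm38.84 (Seurat 2.3.0 is also in the submitters' processing notes, and versions of Cell Ranger and STAR are not given in the sources used here), and the deposited values are raw UMI counts after cell calling, with no normalization. A deposited table of the authors' comparison between ages (fold changes and p-values) and a list of background genes were not used. Files held 31156 cells. CMs had at least 1 UMI of each of 4 markers, where the study states no threshold. No doublet caller was run, and leaving out the 5% of CMs with most UMIs was an alternative.

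For each library, the UMIs of a gene in all CMs were divided by the total UMIs of these CMs and multiplied by 1000000 (CPM), with exact Poisson intervals. Ratios carry the exact binomial interval of the split of UMIs between 2 libraries, without a pseudocount, and shares the Clopper-Pearson interval, all at 95% and for counting error only. PCR duplicates were collapsed by UMI. A count of 0 is limited by 3 UMIs. Ratios were computed for all genes with at least 50 UMIs over the pair and called past 2-fold. With 1 library per group no p-value was computed. CMs were thinned without replacement to 1000 (or 2000) UMIs. All members are named. Of the lists, at most 6 genes each were named, those past 2-fold in the same direction from E16.5 to P1 in both ploidies, largest first, and others named (Bnip3l, Fundc1, Vegfb, Ramp2, Ddit4l) were chosen after their values were seen. The ratios and intervals were also run on simulated Poisson counts with known changes. These held no variation between cells, litters or libraries, so they bear only on counting error. Alternatives were other scalings, depth, CM filters, folds and count filters. Promoter windows came from RefSeq and gene positions from GENCODE vM21. Transcript ends (last 500 bases) were compared with BLAST 2.17.0 at 95% identity over at least 90 bases. Python 3.11.15, NumPy 2.4.6, SciPy 1.17.1 and pandas 2.3.3 were used.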

Additional observations from a re-analysis of the deposited data

How the results depend on the processing

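Of 276 alternative values of the counts of members called, 253 stayed within 1.5 times the reported count. Many reported counts were 0, among them all counts of members higher, and many of the 253 are values that stayed at 0. A change from 3 to 2 also counted as within 1.5 times. With median of ratios scaling, which brought the median gene close to 0, members lower were 2 of 10 from E16.5 to P1 in 4n CMs (2 in 2n), 2 from E16.5 to P5 in each ploidy and 0 from P1 to P5 in 4n CMs. Under this scaling 6.49% (2n) and 8.08% (4n) of all genes were lower from E16.5 to P5, and 5.33% from P1 to P5 in 4n CMs. The count from P1 to P5 in 4n CMs was also 0 with the 50 most abundant or the mitochondrial genes left out of the total, with no CM filter, with a 3-fold call and without CMs with non-myocyte markers when Acta2 and Abcc9 were not counted (added after seeing the data). Apart from the 3-fold call, 3.63% to 7.51% of all genes were lower under these alternatives. Thinning to 2000 UMIs gave 2 lower from E16.5 to P1 and 3 from E16.5 to P5 in 4n CMs, beside 13.1% and 22.0% of all genes. Leaving out the CMs with any non-myocyte markers gave 2 from E16.5 to P1 in 4n CMs, beside 16.7% of all genes. A 3-fold call gave 1 lower at birth in each ploidy, and 0 (2n) and 2 (4n) from E16.5 to P5. A 1.5-fold call gave 6 lower at birth in 2n CMs, and 1 lower and 2 higher from P1 to P5 in 2n CMs. The shares of all genes at the 1.5-fold and 3-fold calls are not given here, so these counts stand without a comparison. From P1 to P5 in 2n CMs 1 was lower with thinning to 1000 UMIs, without CMs with non-myocyte markers and with no filter on low counts. Of all genes 2.90%, 3.67% and 7.28% were lower under these alternatives. With no filter Adm counted as higher in 4n than in 2n CMs at P5 (1 member, beside 4.88% of all genes), and at 1000 UMIs its log2 ratio reversed to -0.32. Of 1080 alternative values of single log2 ratios, 895 stayed within the counting interval, 184 moved beyond it and 1 was the reversal of Adm. This count of reversals does not cover all changes of sign. Ratios near 0, such as those of Hif1a, changed sign with the scaling. So did some whose counting interval excluded 0. Ddit4 from E16.5 to P1 in 4n CMs (-0.45) reached 0.03. Vegfa from E16.5 to P5 (-0.37 in 2n and -0.25 in 4n CMs) reached 0.08 and 0.28. Median of ratios scaling lowered the share of all genes called lower from E16.5 to P1 from 13.9% to 7.46% (2n) and from 12.5% to 6.98% (4n), with 4.50% and 6.34% higher. Leaving out a replicate was not possible with 1 library per group. No paired analysis was possible because each group has 1 library, so that the groups share fewer than 2 replicate numbers. Depth limited Adm and Ankrd37 most.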

Other observations

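The 45 pairs of members were looked at for detection in the same CM, after the data had been seen, with each CM thinned to 1000 UMIs. The share of CMs with the second gene among CMs with the first was divided by its share among CMs without the first. For the pairs with most cells this ratio over the 6 libraries was 0.905 to 1.06 for Hif1a and Higd1a and 0.926 to 1.11 for Egln1 and Higd1a. It was 0.900 to 1.17 for Bnip3 and Higd1a. In E16.5-2n CMs Higd1a was found in 41.4% (38.1 to 44.8) of CMs with Bnip3 and in 35.5% (34.1 to 36.9) of the rest, intervals that did not overlap. The ratio stayed on 1 side of 1 in all 6 libraries for Hif1a and Vegfa (1.02 to 1.49), Bnip3 and Egln1 (0.772 to 0.929) and Higd1a and Ddit4 (0.739 to 0.987). For Bnip3 and Pdk1, which had similar courses over the libraries, it was 0.928 to 1.27, on as few as 10 CMs with both in a library. In counts this sparse such ratios are a description only.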
